A study of Bos taurus with 4 samples.

Results

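Genes that promote or restrain apoptosis, together with p53 target genes and the kinases upstream of p53, were examined in bovine embryos that had been vitrified as morulae or left unfrozen, and had then grown to expanded blastocysts. The set was a fixed list of 44 gene symbols, and a gene was included when at least 1 probe of the EmbryoGENE EMBV3 array carried its symbol in the platform annotation. This held for 40 of the 44 genes, with 62 of the 43794 probes, and BIK, BBC3, PMAIP1 and BIRC2 had no probe with their symbol. Of the 40 genes, 37 were above background and were tested, among 11391 tested genes in all. Each of the 4 arrays of 1 slide carried 1 pool of vitrified and 1 pool of control blastocysts, with Cy5 on the vitrified pool of arrays 1 and 2 and Cy3 on that of arrays 3 and 4. All embryos were produced in vitro from slaughterhouse oocytes, labeled as beef breed, fertilized with frozen-thawed bull semen and cultured to the morula stage. Vitrified morulae were exposed to ethylene glycol, dimethyl sulfoxide and sucrose, plunged into liquid nitrogen on a Cryotop, warmed and cultured on, whereas control morulae were cultured on without cryopreservation. The cryopreservation field of the sample labels reads yes for both groups, and the treatment field separates them. The labels give 7 embryos per pool, collected at day 7 after fertilization, with morulae taken at day 6, while the Methods give smaller pools too and a later morula day. A pool was a single value per array, it held only morulae that went on to expanded blastocysts, and its RNA was amplified before labeling.

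In the mitochondrial pathway of apoptosis, BAX and BAK1 open the outer mitochondrial membrane, pro-survival relatives such as BCL2 and MCL1 hold them in check, and BH3-only proteins such as BID and BCL2L11 relieve that restraint. Released cytochrome c joins APAF1 to activate the initiator caspase CASP9, and inhibitor of apoptosis (IAP) proteins oppose caspases until DIABLO and HTRA2 displace them. A separate route starts at death receptors such as FAS, which recruit FADD and CASP8. DNA damage activates the kinases ATM, ATR, CHEK1 and CHEK2, which stabilize p53 against its inhibitors MDM2 and MDM4, and p53 then induces genes of cell cycle arrest, DNA repair and cell death. Apoptotic cells are common in mammalian blastocysts, mainly in the inner cell mass, also without cryopreservation.

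Values are log2 ratios of the vitrified over the control pool of an array after background subtraction, loess and quantile normalization, so that a positive ratio was higher in vitrified blastocysts. The log2 fold change is the limma estimate over the 4 arrays with a term for the dye, so that its SE does not count the part of the spread that followed the dyes. A reading was 1 pool of 1 array, and it was above background when the spot exceeded the negative controls. Per dye and array, 60.1% to 67.3% of all probes were above background, and the ratios of different arrays had Pearson correlations between -0.15 and 0.19 across the 28856 probes tested. With 4 arrays, precision is limited by their number. The Methods describe the pools of a group as coming from separate fertilization cycles, and which cycle an array came from is not given.

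Of the 37 tested genes, GADD45B and BAX had lower signals after vitrification (unadjusted p under 0.05), and no member had a higher one. Over all tested genes 5.31% were lower and 3.52% higher at that level, so that 5.41% of the tested members and 8.83% of all tested genes passed in either direction. None of the members passed an adjusted p under 0.05 from limma with Benjamini-Hochberg adjustment over all probes (lowest 0.461), nor did any other probe (lowest 0.177). Fold changes of the members lay between -0.60 and 0.43 on the log2 scale, with a median of 0.01, and 19 were above and 18 below 0. The median of all tested genes was 0.0023. The 95% interval of the fold change stayed within 2-fold in either direction for all 37 tested genes, and within 1.5-fold for 19 of them. The widest bounds were -0.96 for GADD45B and 0.92 for GADD45G. The limma SE behind these intervals draws the variance of each gene toward that of all tested probes. It was 0.35 for BNIP3, whose ratios had an SD of 1.17 over the arrays, and 0.15 for BCL2L1 (SD 0.04). The intervals thus do not rest on the 4 values of a gene alone, and for BNIP3 they understate the spread of those values. The ratios had the same sign on all 4 arrays in 18.9% of tested members, against 15.8% of all tested genes, and in each of those 7 members the sign was negative. Of all tested genes, 8.32% were negative and 7.5% positive on every array.

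**Figure D1:**
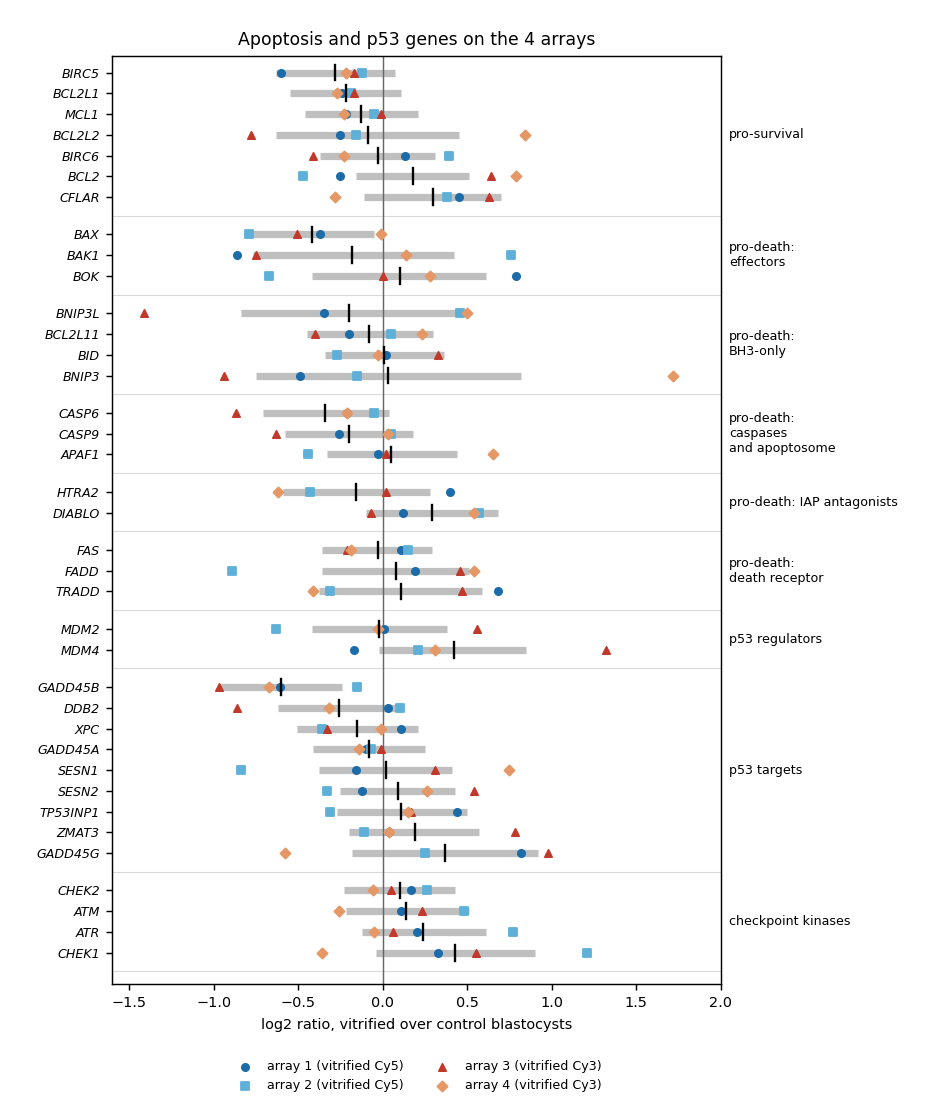
Log2 ratio of vitrified over control blastocysts (x axis) for the 37 tested genes, grouped by role, with a symbol for each of the 4 arrays, the limma log2 fold change as a black line and its 95% interval as a grey bar. GADD45B and BAX have intervals wholly below 0, and BNIP3 runs from -0.94 on array 3 to 1.72 on array 4.

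GADD45B, a stress-induced member of the GADD45 family that is also known as a target of NFKB, had normalized log2 signals of 12.09, 12.34, 12.38 and 12.40 in the vitrified pools of arrays 1 to 4. Its control pools had 12.70, 12.50, 13.35 and 13.07. Every vitrified pool lay below every control pool, and the control pools were the more spread group (SD 0.38 against 0.14, n = 4). The log2 ratios were -0.61, -0.15, -0.97 and -0.67, and the log2 fold change was -0.60 (SE 0.16), or 1.52-fold lower, with an unadjusted p of 0.00429 from limma and an adjusted p of 0.461. By unadjusted p it was gene 130 of the 11391. The value stayed between -0.72 and -0.48 when each array was left out in turn.

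BAX, an effector that permeabilizes the outer mitochondrial membrane and a p53 target, had normalized log2 signals of 8.40, 8.49, 8.44 and 8.54 in the vitrified pools and of 8.77, 9.28, 8.95 and 8.55 in the control pools of arrays 1 to 4. The vitrified pools lay within a narrow band (SD 0.06) and the control pools above it (SD 0.31), but on array 4 the pools were nearly equal. The log2 ratios were -0.37, -0.79, -0.51 and -0.01, and the log2 fold change was -0.42 (SE 0.16), with an unadjusted p of 0.0306 from limma and an adjusted p of 0.626. Without array 2 it was -0.32 and without array 3 it was -0.31, and neither had an unadjusted p under 0.05 (0.174 and 0.154 from limma). GADD45B and BAX were the only tested members whose vitrified and control signals did not overlap, 2 of 37, where 3.62% of all tested genes did not overlap and 2.09% did so with the vitrified pools lower. Each gene had a single probe.

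**Figure D2:**
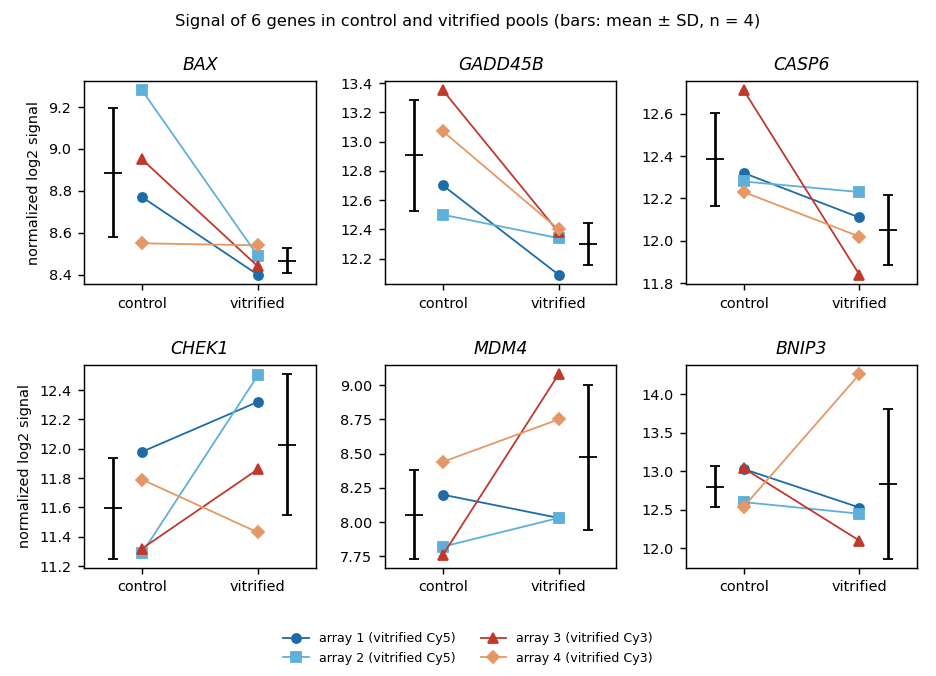
Normalized log2 signal (y axis, not starting at 0) of 6 genes in the control and vitrified pools, with a line joining the pools of an array and bars for the mean and SD of the 4 pools of each group. The vitrified pools of BAX lie between 8.40 and 8.54 and those of GADD45B between 12.09 and 12.40, below all control pools, and on array 4 the BNIP3 line runs against those of the other arrays.

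A pool holds all cell types of the blastocyst, so fewer cells of a type and less RNA per cell cannot be told apart in these values. At an unadjusted p under 0.05 from limma, 5.31% of all tested genes were lower and 3.52% higher, and 50.5% had a log2 fold change above 0. Of 11 trophectoderm markers, all above background in all 8 readings, 9 had a log2 fold change below 0 and 4 passed an unadjusted p under 0.05 as lower, with none higher. Their mean normalized log2 signal ran from 11.58 to 11.94 in vitrified and from 11.83 to 12.42 in control pools, with differences of -0.20, -0.56, -0.85 and -0.21 on arrays 1 to 4. The median log2 ratio of these markers was 0.10, -0.30, -0.97 and -0.12, so on array 1 mean and median differed in sign. The lower markers were KRT19 (-1.50), TFAP2A (-0.88), PAG2 (-0.84) and IFNT (-0.70). CDX2 (-0.17) was not called, and GATA3 (0.02) and TFAP2C (0.31) were above 0, so the lower mean did not extend to all trophectoderm markers. Of 6 inner cell mass markers, 5 were above 0, 3 were higher and 1 (NANOG) was lower at that level, and the mean signal ran from 10.92 to 11.12 against 10.59 to 10.97. The differences were 0.34, 0.15, 0.33 and 0.26. Among the higher inner cell mass markers, SPIC had 0.76 and PRDM14 0.42 by the brightest probe. Their further probes gave 0.25 and 0.27, neither at an unadjusted p under 0.05. The 4 tested hypoblast markers (10.03 to 10.30 against 10.02 to 10.54) had 1 higher, PDGFRA (0.47), and 1 lower, HNF4A (-0.79), by the brightest probe. Further probes were near 0, with 0.06 and -0.09 for PDGFRA and -0.07 and -0.02 for HNF4A. The 6 tested cumulus markers had a mean signal of 8.01 to 8.32 against 8.26 to 8.59, with HAS2 above background in 0 of 8 readings. Of these, 2 were lower, PTGS2 (-1.26) and FSHR (-0.57), and FSHR was dim, above background in 3 of 4 vitrified readings. CYP19A1 (-0.04), INHBA (0.03), PTX3 (0.20) and TNFAIP6 (0.10) were not called, so the lower mean did not extend to all cumulus markers. PTGS2 weighed most in that mean, with a signal of 11.71 in vitrified and 12.97 in control pools, and the next highest marker was CYP19A1 (8.22 and 8.26). The median log2 ratio of the 6 markers was -0.23, 0.01, -0.42 and -0.17 on arrays 1 to 4. The paper lists PTGS2 under embryo implantation, so this mean is not a measure of cumulus cells alone. Neither of the 2 sperm markers passed (7.23 to 8.11 against 6.95 to 7.32). The part of these markers in the values of BAX and GADD45B was not tested.

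The pro-survival genes had small negative values on average. Of 7 tested genes, 5 had a log2 fold change below 0, and none was higher or lower at an unadjusted p under 0.05. BIRC5, the IAP family protein survivin that also acts in cell division, had ratios of -0.60, -0.12, -0.17 and -0.22 on arrays 1 to 4 and a log2 fold change of -0.28 (SE 0.16). A further BIRC5 probe gave -0.30, with ratios of 0.15, -0.09, -0.81 and -0.44, so the 2 probes differed by array. BCL2L1, which encodes BCL-XL, had ratios between -0.27 and -0.17 by its brightest probe, the smallest spread of any tested member (SD 0.04), and an estimate of -0.22 (SE 0.15) over the arrays. Further probes gave 0.27 and -0.19, so the probes of BCL2L1 did not share a direction. MCL1, a short-lived pro-survival protein, had ratios of -0.22, -0.05, -0.01 and -0.23 and an estimate of -0.13 (SE 0.15), while its further probes gave 0.09 and -0.04. BIRC5, BCL2L1 and MCL1 were below 0 on all 4 arrays by their brightest probe, and their values stayed well short of a 2-fold difference (lowest bound -0.63, for BIRC5).

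BCL2 itself split along the dyes. With Cy5 on the vitrified pool its ratios were -0.25 and -0.47, and with Cy3 they were 0.64 and 0.79, and the dye term (-0.54, unadjusted p = 0.00556 from limma) was larger than the log2 fold change of 0.18 (SE 0.15). The BCL2 probe was above background in 3 of 4 vitrified and in 1 of 4 control readings. CFLAR, an inhibitor of CASP8 at death receptors, was as dim (3 and 1 readings), with ratios of 0.45, 0.38, 0.63 and -0.28 and a log2 fold change of 0.30 (SE 0.18), which was 0.07 without array 3 and 0.52 without array 4. Its value was 0.14 without background subtraction. BCL2 and CFLAR thus reached the minimum of 4 readings mainly through their vitrified pools, the group in which they were higher. BCL2L2 ran from -0.78 on array 3 to 0.84 on array 4 (estimate -0.09, and -0.49 without array 4), and BIRC6, a very large ubiquitin-conjugating IAP protein, had -0.03 (SE 0.15) as its log2 fold change. The sign of BCL2L2 and of BIRC6 thus depended on the array or probe.

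Among the effectors next to BAX, the arrays disagreed. BAK1, its partner, had ratios of -0.86, 0.76, -0.75 and 0.14 in array order, with a log2 fold change of -0.18 (SE 0.26), or -0.59 without array 2. BOK, a related protein with a less settled role, had 0.79, -0.67, 0.0015 and 0.28 and a log2 fold change of 0.10 (SE 0.23). The spread over arrays thus exceeded the mean difference in BAK1 and BOK, whereas BAX had a spread (SD 0.32) below its mean difference.

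Of the BH3-only genes, BAD was above background in only 1 of 8 readings and was not tested. BNIP3 and BNIP3L encode related proteins of the mitochondrial membrane that are known to mark mitochondria for autophagy and to be induced at low oxygen. BNIP3 had ratios of -0.49, -0.15, -0.94 and 1.72 on arrays 1 to 4, the largest spread of any tested member (SD 1.17), and its log2 fold change of 0.03 (SE 0.35) averaged opposite values. The BNIP3 signal of the vitrified pool of array 4 was 14.26, against 12.10 to 12.53 in the other vitrified pools and 12.54 to 13.04 in the control pools. Without array 4 the log2 fold change was -0.63 (unadjusted p = 0.00728 from limma) and without array 3 it was 0.69 (0.00472), so its direction was set by which of these arrays was kept. BNIP3L had -0.35, 0.46, -1.41 and 0.50 and a log2 fold change of -0.20 (SE 0.28), which was -0.68 without array 4 and 0.28 without array 3. In both genes array 3 had the lowest and array 4 the highest ratio, and the other BNIP3L probe was also lowest on array 3 (-1.29) but highest on array 2 (0.35). BCL2L11, known as BIM, and BID had log2 fold changes of -0.08 (SE 0.17) and 0.01 (SE 0.15). Of these, BCL2L11 was dim, above background in 2 of 4 vitrified and 3 of 4 control readings, while BID was above it in all 8.

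Caspase genes with a measurable signal had negative or near-zero values. CASP6, an executioner caspase, had ratios of -0.21, -0.05, -0.87 and -0.21, below 0 on all 4 arrays, and a log2 fold change of -0.34 (SE 0.17), at an unadjusted p of 0.0726 from limma. Its signals ran from 11.84 to 12.23 in vitrified and from 12.23 to 12.71 in control pools, and the groups met at 12.23. The CASP6 value was -0.17 without array 3 (unadjusted p = 0.394 from limma) and -0.50 without array 4 (0.0217). CASP9 had an estimate of -0.20 (SE 0.17) by its brightest probe, with -0.26 and -0.63 on arrays 1 and 3 and values near 0 on the others. A second CASP9 probe, also above background in all 8 readings, had 0.17, -0.83, -0.95 and -0.38 and a log2 fold change of -0.50 (SE 0.20), at an unadjusted p of 0.0331, where 7.73% of all tested probes had one under 0.05. The probes agreed in the sign of their mean but, among single arrays, only in that of array 3, and the gene averaged over its probes did not reach an unadjusted p under 0.05. APAF1, the scaffold that activates CASP9, had -0.03, -0.44, 0.02 and 0.65 and a log2 fold change of 0.05 (SE 0.17). CASP2 and CASP8, initiator caspases, were above background in 2 of 8 readings each and were not tested.

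The mitochondrial antagonists of IAP proteins had opposite signs. DIABLO was higher in the vitrified pool on 3 of 4 arrays, with ratios of 0.12, 0.57, -0.07 and 0.54 and a log2 fold change of 0.29 (SE 0.17; unadjusted p = 0.122 from limma). Its value was 0.14 without array 4 (0.495) and 0.45 without array 3 (0.0467). HTRA2, a serine protease, had 0.40, -0.43, 0.02 and -0.62 and a log2 fold change of -0.16 (SE 0.19). Neither was distinguishable from no difference at this number of arrays.

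At the death receptor, FAS had ratios of 0.11, 0.15, -0.21 and -0.19, a narrow spread around 0, and its log2 fold change was -0.03 (SE 0.14). The FAS ratios were positive with Cy5 and negative with Cy3 on the vitrified pool (dye term 0.17, unadjusted p = 0.278 from limma). The adaptor FADD had 0.19, -0.89, 0.46 and 0.54, for an estimate of 0.08 (SE 0.19), and a further FADD probe was marked as ignored by the image software on 1 array and left out. TRADD, the adaptor of the TNF receptor, had 0.68, -0.31, 0.47 and -0.41 and a log2 fold change of 0.11 (SE 0.21). The 95% intervals reached from -0.36 to 0.29 for FAS, from -0.36 to 0.51 for FADD and from -0.38 to 0.59 for TRADD.

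The inhibitors of p53 differed in their values. MDM4 had ratios of -0.17, 0.21, 1.32 and 0.31 and a log2 fold change of 0.42 (SE 0.19; unadjusted p = 0.059 from limma), which was 0.17 without array 3 (0.407) and 0.66 without array 4 (0.00567). MDM2, itself a p53 target that marks p53 for degradation, had 0.01, -0.63, 0.56 and -0.03 and a log2 fold change of -0.02 (SE 0.18), with opposite signs on arrays 2 and 3.

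Genes counted as p53 targets did not share a direction. Of 12 tested genes, which include BAX, FAS and MDM2, 5 had a log2 fold change above 0 and 7 below, and the lower genes GADD45B and BAX were among them. The 3 GADD45 genes, which encode small stress proteins of growth arrest and DNA repair, had different values. GADD45A, the classical p53 target among them, had ratios of -0.10, -0.07, -0.01 and -0.14 and a log2 fold change of -0.08 (SE 0.15), with -0.09 for a further probe. GADD45G had 0.82, 0.25, 0.98 and -0.58 and a log2 fold change of 0.37 (SE 0.24), which was 0.75 without array 4 (unadjusted p = 0.00319 from limma) and -0.02 without array 3. Thus GADD45B was below 0 on all 4 arrays and GADD45G above 0 on 3 of 4. GADD45A was close to 0 on all 4 by its brightest probe, while its further probe ran from -0.34 to 0.26. A difference between the 3 genes was not tested.

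The DNA repair genes DDB2 and XPC, which recognize ultraviolet lesions, had log2 fold changes of -0.26 (SE 0.16) and -0.15 (SE 0.16). DDB2 had ratios of 0.03, 0.10, -0.86 and -0.32 and was above background in 2 of 4 vitrified and 3 of 4 control readings. SESN1 and SESN2 encode sestrins, which restrain mTORC1. SESN1 followed the dyes too, at -0.16 and -0.84 with Cy5 and 0.31 and 0.75 with Cy3 on the vitrified pool (dye term -0.51, unadjusted p = 0.0158 from limma), and a log2 fold change of 0.02 (SE 0.17). SESN2 had 0.09 (SE 0.15) by its brightest probe and -0.40 by a second probe. That probe was above background in 4 control readings but 1 vitrified reading, so it entered the test through its control pools alone and its value is given as a description. ZMAT3, an RNA-binding protein, had 0.04, -0.11, 0.78 and 0.04 and a log2 fold change of 0.19 (SE 0.17). TP53INP1, a nuclear stress protein, had ratios from -0.31 to 0.44 around an estimate of 0.11 (SE 0.17). BCL2 and SESN1 were the only members with a dye term at an unadjusted p under 0.05, 2 of 37, where 7.22% of all tested genes had one.

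**Figure D3:**
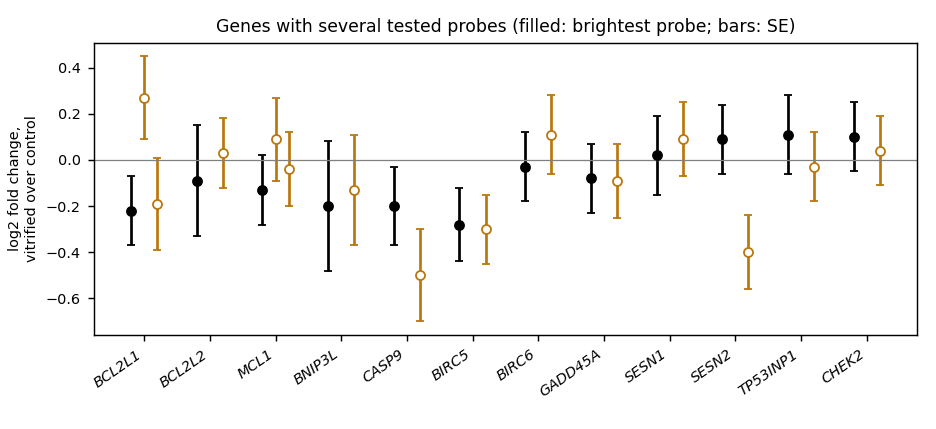
Log2 fold change of vitrified over control blastocysts (y axis) for each tested probe of the 12 genes with more than 1 tested probe, with the brightest probe filled and bars for the SE of the limma fit. The probes of BCL2L1 (-0.22, 0.27 and -0.19) have opposite signs, and the second SESN2 probe (-0.40) was tested through its control readings alone. The fold changes of the probes of BIRC5 (-0.28 and -0.30) and GADD45A (-0.08 and -0.09) nearly coincide, though their ratios on single arrays do not.

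By their brightest probes, the checkpoint kinases had positive values on the first 3 arrays and negative values on array 4. CHEK1, the effector kinase of the replication checkpoint, had ratios of 0.33, 1.21, 0.55 and -0.36 and a log2 fold change of 0.43 (SE 0.21; unadjusted p = 0.0681 from limma), the highest among the tested members. Its control pools ran from 11.29 to 11.98 and its vitrified pools from 11.43 to 12.50, so the groups overlapped. ATR, which activates CHEK1, had 0.20, 0.77, 0.06 and -0.05 and a log2 fold change of 0.24 (SE 0.16). ATM, which responds to double-strand breaks, had 0.11, 0.48, 0.23 and -0.26 and a log2 fold change of 0.14 (SE 0.16). CHEK2, its effector kinase, had 0.17, 0.26, 0.05 and -0.06 and a log2 fold change of 0.10 (SE 0.15). A second CHEK2 probe had -0.10, -0.24, 0.36 and 0.13 and a log2 fold change of 0.04, and so did not share this sign pattern. By the brightest probes, all 12 ratios of the 4 kinases on arrays 1 to 3 were above 0 and all 4 on array 4 were below 0. The share of all tested genes with this sign pattern is not given here. None of the kinases was higher at an unadjusted p under 0.05. When arrays were left out, CHEK1 had 0.65 without array 1 (unadjusted p = 0.0161 from limma), 0.21 without array 2 (0.397), 0.20 without array 3 (0.376) and 0.66 without array 4 (0.0122), so its size depended on the arrays kept.

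Pro-survival, pro-death and p53 target genes were then compared by their medians on each array, as a description with no test. By the brightest probes, the median log2 ratio of the 7 pro-survival genes was -0.24, -0.12, -0.17 and -0.23 on arrays 1 to 4, below 0 on each. That of all 11391 tested genes ran from -0.04 to 0.02, but a median of 7 genes varies more than a median of that many. The 15 pro-death genes had medians of -0.03, -0.15, -0.21 and 0.14, and the 12 p53 targets had 0.02, -0.23, 0.08 and -0.02. Over the fitted log2 fold changes the medians were -0.09, -0.03 and -0.03, with 28.6%, 46.7% and 41.7% of genes above 0, against 50.5% of all tested genes. The pro-survival genes above 0 were BCL2 and CFLAR, which passed the filter mainly through their vitrified pools, so that share is a description only. With only probes above background in all 8 readings, which leaves both out, the pro-survival median was -0.13. The pro-survival median minus the pro-death median was -0.21, 0.03, 0.04 and -0.37 on arrays 1 to 4 (mean -0.13, SD 0.20), so the classes kept no common order. The pro-survival median was 0.02 without array 3 and -0.03 with the mean over the probes of a gene. Further probes of BCL2L1 (0.27) and MCL1 (0.09) were above 0, and others (-0.19 and -0.04) below. The members varied over the arrays about as much as other genes did: their median SD was 0.39, against 0.33 for all tested genes, and the dye term was larger than the fold change in 43.2% of the members and in 47.3% of all tested genes.

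**Figure D4:**
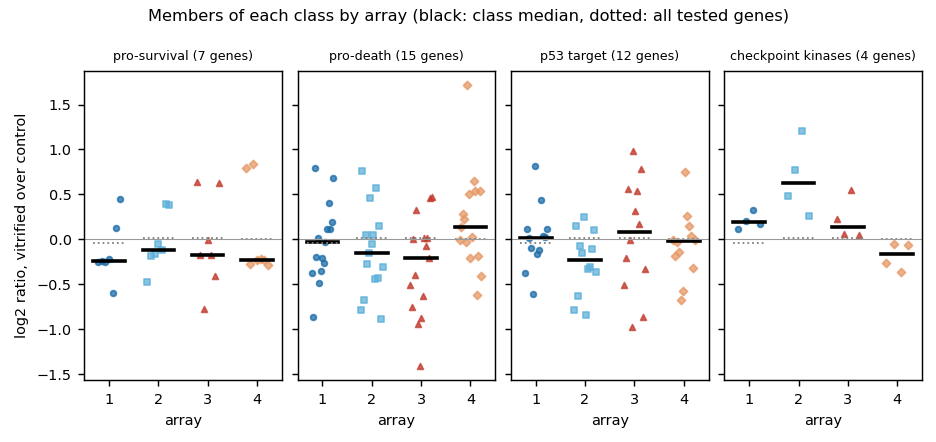
Log2 ratio of vitrified over control blastocysts (y axis) of every tested gene of 4 classes on arrays 1 to 4 (x axis), with the class median as a black line and the median of all tested genes as a dotted line. The pro-survival median of the brightest probes stays below 0 on each array. By their brightest probes the kinases lie above 0 on arrays 1 to 3 and below 0 on array 4.

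Other genes of the same pathways gave few calls as well. Of 14 tested genes of a list of further apoptosis genes, such as IAP proteins, nucleases and adaptors of the TNF receptor, none was higher or lower at an unadjusted p under 0.05, and the median log2 fold change was 0.07. Of 17 tested genes of a further p53 list, 2 were lower and none was higher, with a median of -0.01. PERP, a p53 target of the desmosome, had ratios of -0.24, -0.64, -0.53 and -0.33 and a log2 fold change of -0.43 (SE 0.15), but its other probe had 0.34. TIGAR, which restrains glycolysis, had -0.44, -0.91, -0.75 and 0.16 and a log2 fold change of -0.49 (SE 0.19). Of 17 tested genes of the DNA damage checkpoint, RAD50, a subunit of the complex that binds double-strand breaks, was higher, with 0.59, 0.34, 0.64 and -0.0015 and a log2 fold change of 0.39 (SE 0.17), and none was lower. The median there was 0.06. In these lists 0 of 14, 2 of 17 and 1 of 17 genes thus passed, where 8.83% of all tested genes did, and none passed an adjusted p under 0.05 from limma.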

How the data were processed

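Bovine blastocyst RNA was measured on 4 two-colour arrays. Spot intensity was deposited as the median foreground and median local background of each dye, before any subtraction. A table of log2 ratios (Cy5 to Cy3) was also deposited, for which the authors' methods name lowess and quantile normalization after background subtraction. These ratios correlated at 0.999988 or more with loess-normalized ratios before quantile normalization, were not turned for the dye, and served as an alternative.

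In R 4.3.3 with limma 3.58.1, the background was subtracted with a floor of 0.5, followed by loess and quantile normalization. A reading was above background when it was over the mean plus 2 SD of the 153 negative controls. Probes above background in at least 4 of 8 readings were tested, without 88 that the image software marked as ignored. The model held group and dye, leaving 2 residual degrees of freedom (prior 6.92). Tests were two-sided, with Benjamini-Hochberg adjustment over the 28856 probes. A gene took its brightest tested probe. All 40 gene symbols occur in the RefSeq gene table of ARS-UCD2.0. No sequences or coordinates were used here.

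Members and lists were chosen with earlier results of these data known. Values by array are given for members at an unadjusted p under 0.05, for up to 3 members per role with the smallest p and for textbook members, and other members were named after their values were seen. From the further apoptosis, p53 and checkpoint lists, genes at that p were named. The marker lists were those of trophectoderm, inner cell mass, hypoblast, cumulus and sperm. The steps were tested on simulated data. Alternatives were the deposited ratios, the mean over probes, each array left out, normexp correction or unsubtracted signals, all probes or those above background in all 8 readings, median centring, loess alone, a fit lacking the dye term, a fit to separate channels, and a robust fit with an intensity trend.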

Additional observations from a re-analysis of the deposited data

Results flagged for a closer look

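The log2 ratio of ZMAT3 on array 3 was 0.78, while its ratios on the other arrays lay between -0.11 and 0.04. Its gap to the nearest array was 0.831 of the whole range, just above the Dixon 95% critical value for 4 values. It was the only 1 of 37 tested members with such an array (2.70%), and 5.26% of all tested genes had one, where chance flags about 1 in 20.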

How the results depend on the processing

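GADD45B kept its direction and an unadjusted p under 0.05 in all 15 alternatives, with log2 fold changes from -0.92 to -0.48, and BAX did so in all but the fits without array 2 or 3. No member passed an adjusted p under 0.05 in any setting (lowest 0.101, without array 4). The number of higher members was 2 with separate channels (CHEK1 and MDM4, with 3 lower, BAX, CASP6 and GADD45B), where 6.26% of all tested genes were higher and 8.45% lower. It ran from 0 to 4 when each array was left out in turn, and the number of lower members ran from 1 to 6. In those fits 1.55% to 7.3% of all tested genes were higher and 2.39% to 9.97% lower. Without array 4, 4 members were higher (CFLAR, CHEK1, GADD45G and MDM4) and 6 lower. In that fit 7.3% of all tested genes were higher and 9.97% lower, 17.3% in either direction. Leaving out an array leaves a lone array of one orientation, which then counts for as much as the other pair. Median centring in place of loess moved the median of all genes to -0.14. It gave 0 higher and 8 lower members, where 0.878% and 14.7% of all genes were higher and lower, and medians of -0.33 for pro-survival, -0.28 for pro-death and -0.23 for p53 target genes. The pro-survival median was -0.03 with the mean over the probes of a gene and ran from -0.11 to 0.02 with each array left out.

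With median centring the sign turned for BOK (-0.20), BCL2L11 (0.0049), BID (-0.27), BNIP3 (-0.30), APAF1 (-0.15), DIABLO (-0.01), FADD (-0.13), SESN1 (-0.28), TP53INP1 (-0.19), ATM (-0.16), ATR (-0.06) and CHEK2 (-0.03). It also turned for BID (-0.01 and -0.01), FAS (0.01 and 0.01) and SESN1 (-0.0033 and -0.0035) without quantile normalization and with the deposited ratios, and for BIRC6 (0.04) and SESN2 (-0.15) with the mean over probes. With each array left out, 16 of 37 members took both signs: BAK1 (-0.59 to 0.21), BOK (-0.26 to 0.46), BCL2L2 (-0.49 to 0.33), BCL2L11 (-0.24 to 0.08), BID (-0.08 to 0.10), BNIP3 (-0.63 to 0.69), BNIP3L (-0.68 to 0.28), APAF1 (-0.11 to 0.22), HTRA2 (-0.36 to 0.05), BIRC6 (-0.10 to 0.03), FADD (-0.18 to 0.35), TRADD (-0.12 to 0.37), MDM2 (-0.18 to 0.14), GADD45G (-0.02 to 0.75), SESN1 (-0.15 to 0.19) and TP53INP1 (-0.08 to 0.30). The cause of these shifts was not tested. Each ratio already pairs the vitrified and control pools of 1 array, so no further block was fitted.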
